A study of Rattus norvegicus with 18 samples.

Results

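The comparison described here is the effect of treadmill training within the high responder line of rats, measured by RNA-seq of the gastrocnemius, a mixed calf muscle. Its members are the 3 libraries of trained high responders (HRTT) and the 3 libraries of untrained high responders (HRT), 6 of the 18 libraries of the series, chosen by group label alone. All were males of generation 15 of a line bred from the genetically heterogeneous N:NIH stock for a large gain in running distance with training, and they carried no transgene or other engineered allele. They took a first running capacity test at 10 to 12 weeks of age. HRTT rats were then trained on a treadmill 3 days a week for 8 weeks, and HRT rats were separate, untrained animals (0 weeks). Both groups took the maximal running test at the end, and muscle was dissected 48 h after it, so that HRT muscle was not free of recent running. The low responder line, untrained (LRT) and trained (LRTT), with 3 male rats of generation 15 in each group, is used only where a comparison needs it. Because the lines descend from an outbred stock, rats of a group were not genetically identical.

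Skeletal muscle is built of slow fibres, which are rich in mitochondria and resist fatigue, and fast fibres, which contract quickly and rely more on glycolysis. Each fibre type uses its own copies of the myosin chains, the troponin and tropomyosin proteins of the thin filament, and the calcium stores that set off contraction. Sarcolipin, a small protein of the sarcoplasmic reticulum, binds the pump that returns calcium to the store and lowers the calcium moved per ATP spent. Endurance training is known to raise mitochondrial content and capillary supply and, in some settings, to move fibres towards the slow type.

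Data of 2 kinds bear on the comparison. The deposited counts give every rat separately, but by Ensembl identifier only, and 0 of the 32882 identifiers could be matched to a symbol through the references used. The authors' list of genes that they called between HRT and HRTT gives symbols with 1 level per group, from pooled replicates, with no error and in a unit that the file does not name. Since levels and counts could not be joined gene by gene, the named genes below have no spread between rats, and the genes with a spread have no name. The list holds only genes that the authors called, so a gene missing from it cannot be read as unchanged, and it does not allow the muscle label to be checked: 0 of 7 skeletal muscle fibre markers (such as Acta1, Ckm and Ttn) are in it.

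The list held 90 names, 62 with a higher and 28 with a lower level in HRTT. The ratio of the levels was at least 2 in 44 of the higher and 21 of the lower genes, and at least 5 in 7 and 5 of them. Its median was 2.63 among the higher genes and 2.31, as HRT over HRTT, among the lower. Of 579 genes in 35 pathway and cell type lists, 18 were among the 90 names, and 72 names were in none of these lists. Since a gene is on the authors' list because they called its difference between HRT and HRTT, these values are a description and were not tested.

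Of the slow fibre contraction genes, 9 of 16 were listed, 8 higher and 1 lower in HRTT. For scale, 90 names are 0.274% of the 32882 genes in the count table and 0.668% of the 13478 genes tested there. Of 16 fast fibre genes, 0 were listed. Sln, which encodes sarcolipin, had a level of 14.7 in HRT and 306 in HRTT, a ratio of 20.9 that is the largest among the 90. How the 3 rats of a group share in these levels could not be read directly, since Sln could not be found in the counts by name. In the counts a fold change of this size was fitted for 2 unnamed genes, both with groups that overlap and with 1 trained rat far above the other trained rats. The gene ranked second among the rises had its group means in the order of the Sln levels: HRTT, LRT, LRTT, HRT. Its HRTT rats had 98.7, 0.0530 and 0.184 CPM (counts scaled to the same total in each library). Apart from replicate 1, they lay below every HRT rat. If this gene is Sln, the ratio rests on 1 trained rat, but the match was not tested. Slow subunits of the thin filament and a slow myosin light chain had ratios close to each other. Tnnc1, the calcium-binding troponin C of slow and cardiac muscle, had levels of 65.0 and 248. Tnnt1, the slow troponin T that ties troponin to tropomyosin, had 89.1 and 317. Tpm3, a slow tropomyosin, had 87.1 and 285, and Myl2, the regulatory light chain of slow and cardiac myosin, had 42.1 and 148. These 4 ratios lay between 3.27 for Tpm3 and 3.81 for Tnnc1.

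Structural and calcium-storing members of the same list were also higher. Myoz2, a protein of the Z-disc that binds calcineurin, had levels of 26.8 in HRT and 102 in HRTT. Myom3, a myomesin of the M-band, had 1.26 and 5.02. Casq2, the calsequestrin that holds calcium in the store of slow and cardiac fibres, had 6.65 and 16.9, a ratio of 2.54. The exception was Myh6, the alpha myosin heavy chain of the heart, with 1.44 in HRT and 0.333 in HRTT, a level 4.32 times lower. Outside the list, Actc1, cardiac alpha-actin, had 8.17 and 29.1, and Myl10, another myosin light chain, had 3.81 and 12.99.

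**Figure D1:**
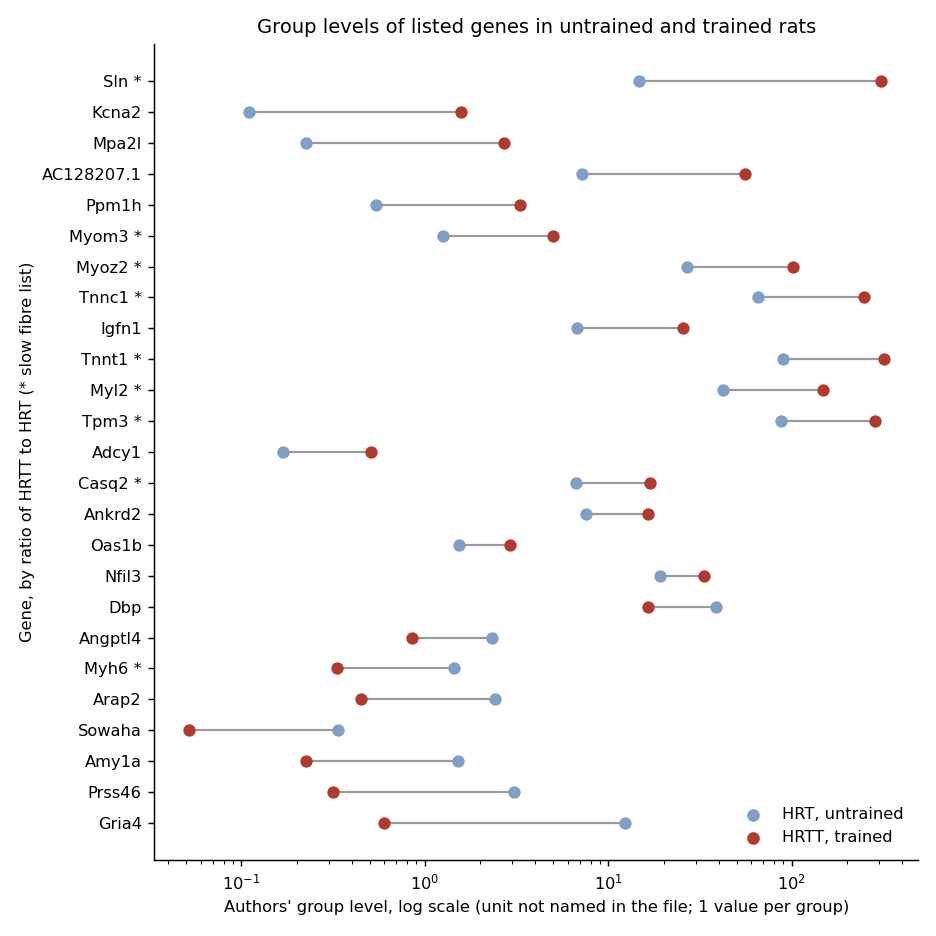
The authors' group level on a log axis for 25 listed genes, 1 point for untrained (HRT) and 1 for trained (HRTT) high responders, each a pooled value with no error. The 8 starred slow fibre genes with a higher HRTT level lie to the right of their HRT points by factors of 2.54 to 20.9, and Myh6 lies to the left.

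RefSeq promoter windows were searched because 8 of the 9 listed slow fibre genes shared a direction. Windows of the 250 bases before the start of transcription, in the build GRCr8 (the counts were made on Rnor_6.0), were found for 6 of the 9 listed slow fibre genes: Tnnt1, Tpm3, Casq2, Myoz2, Myom3 and Myh6. Sln, Tnnc1 and Myl2 had no entry. The 3 windows that hold an A/T-rich MEF2 site, the element named after the myocyte enhancer factors, and the Tnnt1 window, which holds a TATAAA instead, are shown 5′ to 3′ on the strand of the gene, with these matches in capitals. They lie at chr2:192214306-192214555 (plus strand) for Casq2, chr2:213852779-213853028 (minus strand) for Myoz2, chr5:153276056-153276305 (plus strand) for Myom3 and chr1:78348785-78349034 (plus strand) for Tnnt1.
Casq2: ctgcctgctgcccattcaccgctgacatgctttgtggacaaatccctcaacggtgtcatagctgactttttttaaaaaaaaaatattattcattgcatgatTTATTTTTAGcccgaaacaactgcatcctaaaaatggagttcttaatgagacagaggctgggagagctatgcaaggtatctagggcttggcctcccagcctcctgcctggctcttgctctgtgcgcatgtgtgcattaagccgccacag
Myoz2: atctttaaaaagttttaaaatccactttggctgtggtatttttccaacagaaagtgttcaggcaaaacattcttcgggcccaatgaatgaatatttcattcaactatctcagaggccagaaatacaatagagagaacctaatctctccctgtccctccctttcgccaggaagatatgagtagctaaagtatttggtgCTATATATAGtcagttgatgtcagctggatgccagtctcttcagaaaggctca
Myom3: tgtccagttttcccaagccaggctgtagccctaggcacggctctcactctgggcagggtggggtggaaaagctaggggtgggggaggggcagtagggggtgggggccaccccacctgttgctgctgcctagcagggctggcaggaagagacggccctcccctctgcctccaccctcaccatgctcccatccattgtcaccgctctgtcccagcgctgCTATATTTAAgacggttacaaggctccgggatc
Tnnt1: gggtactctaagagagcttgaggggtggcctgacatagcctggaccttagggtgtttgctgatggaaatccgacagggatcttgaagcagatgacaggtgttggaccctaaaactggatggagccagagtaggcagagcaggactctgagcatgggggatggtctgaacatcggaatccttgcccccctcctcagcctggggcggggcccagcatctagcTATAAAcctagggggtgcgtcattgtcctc
The MEF2 match starts 149 bases before the start in Casq2, 53 in Myoz2 and 33 in Myom3, and the TATAAA starts 30 bases before it in Tnnt1. Both strands were searched, and the MEF2 and TATAAA patterns can overlap since both are runs of A and T. A MEF2 match was present in 3 of these 6 windows, in 5 of the 41 windows found for all higher genes (12.2%), in 0 of the 17 for the lower genes, and in 3.07% of all 27457 windows. The 5 include the windows of Casq2, Myoz2 and Myom3, so the 3 of 6 and the 5 of 41 are not separate counts. TATAAA was present in 1 of the 6, in 22% of the windows of higher genes, 23.5% of those of lower genes and 13.1% of all windows. An E-box (CANNTG), to which the MyoD family binds, was present in 6 of the 6. It was in 58.5% of the windows of higher genes, 76.5% of those of lower genes and 65.2% of all windows. An MCAT element (CATTCC) was in 1 of 6, and in 12.2%, 5.88% and 11.8% in the same order. A CArG box was found in 0 of 6, in 2.44% of the windows of higher genes, 0% of those of lower genes and 1.5% of all windows. These matches describe the letters of the windows and were not tested.

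Among calcium handling genes, 3 of 35 were listed, all with a higher level in HRTT: Sln, Casq2 and Adcy1, a calcium-stimulated adenylyl cyclase with levels of 0.169 and 0.507. Ankrd2, a stretch-responsive ankyrin repeat protein that binds titin, had 7.54 in HRT and 16.5 in HRTT and was the only listed gene of 22 for myogenesis and regeneration. Ankrd1, a related protein of that set of 22, had 7.09 and 4.89 in the lists of the line comparisons, which were normalized separately. Igfn1, an immunoglobulin-like protein of the Z-disc, had 6.74 and 25.4 and was the 1 listed gene of 29 for atrophy and protein turnover, and Cdkn1a, a cell cycle inhibitor of that set of 29, had 7.18 and 6.26 in the lists of the line comparisons. Of 29 ion channels and pumps of the fibre membrane, 0 were listed. Kcna10 of that set had 2.05 in HRT and 2.90 in HRTT in the separately normalized lists of the line comparisons. Outside that set, Kcna2, a voltage-gated potassium channel of nerve and other excitable cells, had 0.110 and 1.58, the second largest ratio (14.4). Mpa2l, a guanylate-binding protein, had 0.226 and 2.70, the transcript AC128207.1 had 7.16 and 55.8, and Ppm1h, a protein phosphatase, had 0.540 and 3.31. Of the 90 names, 12, Adcy1 among them, had levels below 1 in both groups.

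Of the metabolic lists, none of the 45 nuclear or 13 mitochondrial respiratory chain genes, the 22 citrate cycle genes, the 24 glycolysis genes or the 22 endurance regulators (such as Ppargc1a) was in the list, and 1 of 24 fatty acid genes was, Angptl4, an inhibitor of lipoprotein lipase, with 2.34 in HRT and 0.851 in HRTT. Ndufa10l1, which is not on these lists and is named for its likeness to a subunit of respiratory complex I, had 1.98 and 7.05. Other enzymes, carriers and regulators outside the lists, chosen after their levels were seen, were listed in both directions. Bdh1, which oxidises ketone bodies, had 0.324 and 1.14, Scd2, a fatty acid desaturase, had 5.07 and 8.70, and Acsl3, which activates fatty acids, had 24.6 and 43.9. Tbc1d1, a Rab regulator of glucose transporter traffic, had 5.38 and 10.3. Lower in HRTT were Slc2a13, a carrier of myo-inositol, with 6.10 and 2.55, and the enzymes Adhfe1, with 24.8 and 15.6, and Marc1, with 6.22 and 2.85. Angiogenesis (30 genes), extracellular matrix (35) and antioxidant defence (26) each had 0 listed genes.

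Genes with a lower level in HRTT were led by Gria4, a subunit of the AMPA glutamate receptor, with 12.3 in HRT and 0.601 in HRTT, 20.4 times lower. Prss46, a serine protease, had 3.05 and 0.315, Amy1a, an amylase, had 1.51 and 0.225, Sowaha had 0.338 and 0.0519, and Arap2, a GTPase-activating protein, had 2.42 and 0.449. Chac1, which degrades glutathione, had 26.0 and 9.91. Aqp4, the water channel of the fast fibre membrane, had 34.9 and 18.3, and Kera, a proteoglycan of tendon and cornea, had 14.95 and 7.03. The sequences named AY172581.20 and Rn60_1_2212.4 had 790308 and 450384, and 487 and 263, and no function is given for either in the files.

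Of 20 circadian clock genes, 2 were listed. Dbp, a D-box activator at the output of the clock, had 38.5 in HRT and 16.5 in HRTT, and Nfil3, which represses the same D-box elements, had 19.2 and 33.2. A further pair of clock genes has levels only through the lists of the line comparisons, which were normalized separately: Ciart had 1.21 in HRT and 0.582 in HRTT, and Per1 had 2.24 and 2.07. Over 51 levels given in more than 1 list, the same group's level differed by at most 2.51% between lists. In all, 47 genes absent from the training list had levels for both groups in this way, with a ratio of HRTT to HRT from 0.480 for Ciart to 1.94 for Scd (median 0.902), and within 1.5-fold in 44 of 47. These genes were on the lists of the lines, so they are no sample of all genes. No time of day is given for the dissections in the sources used here.

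Of 14 lists of cell type markers, 13 had 0 listed genes. From the remaining list, of Schwann cell and nerve, Mbp, a protein of myelin, had 1.89 in HRT and 3.69 in HRTT. S100b, another marker of that list, had 3.12 and 2.90 in the separately normalized lists of the lines. Whether nerve in the tissue samples had a part in other levels, such as that of Kcna2, was not tested. In bulk tissue, fewer cells of a type and less RNA per cell cannot be told apart. Oas1b, an enzyme of the interferon response, was listed with 1.53 and 2.92, as 1 of 26 in its list, while Ifi27 of the same list had 204 in HRT and 177 in HRTT by the separately normalized lists of the lines. Of the inflammation genes, 0 of 29 inflammation genes were listed.

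Beside these levels stand those of the low responder line, which shares no library with HRT and HRTT. The authors' list of LRT and LRTT held 255 names, of which 40 were also in the HRT and HRTT list, 44.4% of the shorter and 15.7% of the longer. Of these, 28 were higher after training in both lines, 5 lower in both, 7 lower in HRTT but higher in LRTT, and 0 the reverse. Tnnt1 had 98.1 in LRT and 496 in LRTT, Tpm3 had 98.6 and 448, Tnnc1 had 111 and 407, and Myoz2 had 57.5 and 198. These slow fibre genes were thus listed as higher in both trained groups. Gria4 was lower in both, with 19.3 in LRT and 0.262 in LRTT. The 7 names with unlike directions were Trim45, Aqp4, Kera, Marc1, Fam111a, Chac1 and Myh6. Myh6 had 0.241 in LRT and 4.87 in LRTT, Kera had 5.05 and 25.7, and Aqp4 had 26.9 and 49.1. Sln was not on the list of the low responders, and its level was 56.3 in LRT and 38.1 in LRTT by the 2 lists of the line comparisons, against 14.7 and 306 in the high responders. With 1 level per group, none of these differences between the lines could be tested by name. The unnamed gene with the group order of Sln had 12.3, 6.10 and 0.304 CPM in LRT and 8.84, 1.59 and 0.741 CPM in LRTT. In HRTT it had 98.7 CPM in replicate 1 against 0.0530 and 0.184 CPM in the others. If that gene is Sln, the contrast between the lines after training rests on HRTT replicate 1, but the match was not tested.

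The counts show how the same comparison looked rat by rat. Total counts were 32099533, 33989419 and 36045341 in HRT replicates 1, 2 and 3 and 34204642, 38066798 and 33674213 in HRTT replicates 1, 2 and 3, and 16785 to 17274 genes per library had at least 1 count. Each column heading carries a number that the file does not explain, 2 in all HRT and 3 in all HRTT libraries, so whatever it marks cannot be told apart from training. Reads were counted without regard to strand and for every gene they overlapped, so overlapping and antisense genes share counts. All 12 libraries of the 2 lines entered 1 fit, so that the groups share an estimate of each gene's spread.

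Of 13478 tested genes, 0 (0%) passed an adjusted p of 0.05 with a fold change above 1.5 by the quasi-likelihood test of edgeR, adjusted after Benjamini and Hochberg, and the smallest adjusted p was 0.9997. DESeq2's Wald test called 2. An unadjusted p under 0.05 was reached by 335 genes (2.49%), of which 166 had a higher and 169 a lower mean in HRTT, where an equal share of p-values would give 674. Without HRT replicate 3 the number was 536, and it was 241 to 449 with any other of the 12 rats left out. Of the 335, 76 higher (0.564%) and 69 lower (0.512%) also had a fold change above 1.5. The 3 HRTT rats lay entirely above or below the 3 HRT rats in 1131 genes (8.39%), 515 upward (3.82%) and 616 downward (4.57%). The typical gene moved little, with a median log2 fold change of -0.01 and quartiles of -0.13 and 0.12, against a median SD between rats of 0.24 in HRT and 0.18 in HRTT on the log2 CPM scale (CPM, counts scaled to the same total in each library). Rats with equal replicate numbers tended to deviate alike from their group means, although no source names what they share. The fit above has no block for the replicate number, so its p-values ignore any such pairing. With the replicate number as a block and only these 6 libraries in the fit, 1 gene was called by edgeR and 715 had an unadjusted p under 0.05, and with the block over 12 libraries 0 were called and 449 had an unadjusted p under 0.05.

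**Figure D2:**
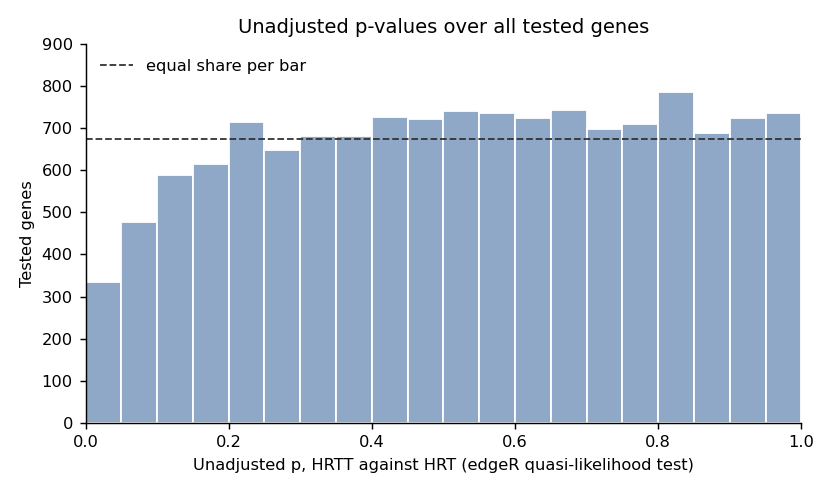
Histogram of the unadjusted p-values of HRTT against HRT from edgeR's quasi-likelihood test over 13478 genes, in 20 bars, with a dashed line at an equal share per bar. The leftmost bar holds 335 genes and is the lowest of the 20.

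The libraries did not separate by training. Over the 500 most variable genes, a trained and an untrained rat lay 41.4 ± 11.7 apart (Euclidean distance on log2 CPM, SD, 9 pairs), and rats of the same group 45.6 ± 12.5 (SD, 6 pairs), a difference of -4.14 (exact permutation test, one-sided, p = 0.7, where 3 against 3 rats cannot go below 0.1). Only 2 of the 6 rats had a member of their own group as nearest neighbour, and the other 4 were nearest to the rat of the same number in the other group. The first principal component, with 60.5% of the variance, set replicate 1 of both groups apart: HRT scored -24.0, 11.6 and 21.4, and HRTT scored -37.6, 16.3 and 12.2. With the mean of each replicate number removed, the difference of the distances was 3.77 (exact permutation test over swaps within pairs, one-sided, p = 0.5, smallest possible 0.25). Without this removal, the difference was -2.96 when HRTT replicate 1 was left out and -2.33 when HRT replicate 1 was left out.

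**Figure D3:**
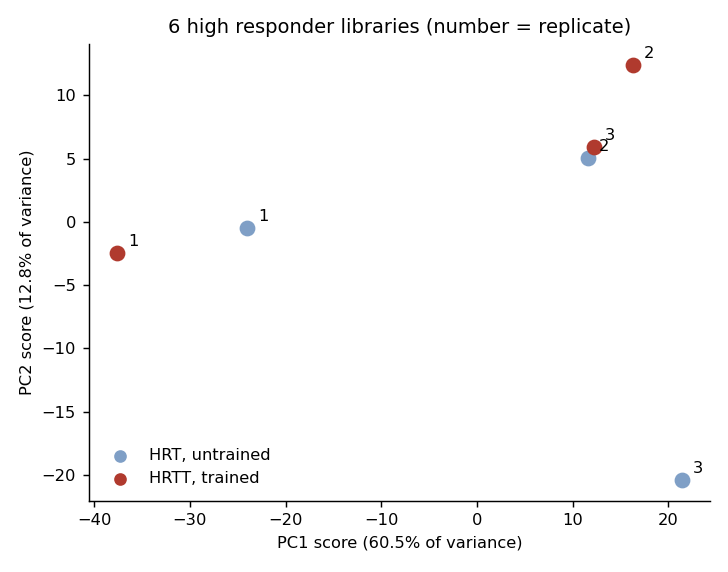
Scores of the 6 high responder libraries on the first (60.5%) and second (12.8%) principal components of log2 CPM of the 500 most variable genes, with replicate numbers beside the points. Replicate 1 of both groups lies at the left, and trained and untrained rats are intermixed along the first component.

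A log2 fold change above 1 was fitted for 129 genes upward (0.957%) and 76 downward (0.564%). Without adjustment, 18 of the former and 30 of the latter passed p of 0.05, and 38 and 29 had groups that did not overlap. Of the 129, the highest HRTT rat was replicate 1 in 83, replicate 2 in 26 and replicate 3 in 20, and the lowest HRT rat was replicate 1 in 14, replicate 2 in 46 and replicate 3 in 69. Of the 76, the lowest HRTT rat was replicate 1 in 18, replicate 2 in 33 and replicate 3 in 25. Without HRTT replicate 1 the counts turned to 97 upward and 277 downward. They were 273 and 151 without HRT replicate 1, 225 and 113 without HRT replicate 2, 175 and 97 without HRT replicate 3, 205 and 101 without HRTT replicate 2, and 226 and 121 without HRTT replicate 3.

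Among the 10 largest rises, 8 overlapped between the groups. The second ranked gene had 2.96, 1.21 and 0.583 CPM in HRT replicates 1 to 3 and 98.7, 0.0530 and 0.184 CPM in HRTT. The sixth had 7.49, 1.67 and 2.01 CPM in HRT and 80.2, 2.12 and 2.05 CPM in HRTT, and the eighth had 6.11, 1.67 and 2.30 CPM in HRT and 66.0, 2.20 and 2.17 CPM in HRTT. In each of these 3, HRTT replicate 1 stood alone among the trained rats, and HRT replicate 1 was the highest of the untrained. The third ranked gene had 0.967, 12.6 and 1.05 CPM in HRT and 10.5, 14.9 and 259 CPM in HRTT, with replicate 3 alone at the top. By contrast the tenth, with 0.156, 0.339 and 0.146 CPM in HRT and 1.27, 1.40 and 0.796 CPM in HRTT, had groups that did not overlap (edgeR unadjusted p = 0.000428). Of the 10 largest falls, 7 had groups that did not overlap. These genes are given by rank because the files do not pair identifiers with symbols, and none could be identified by name with a gene of the level list. The second ranked rise shares the group order of Sln, as given above.

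**Figure D4:**
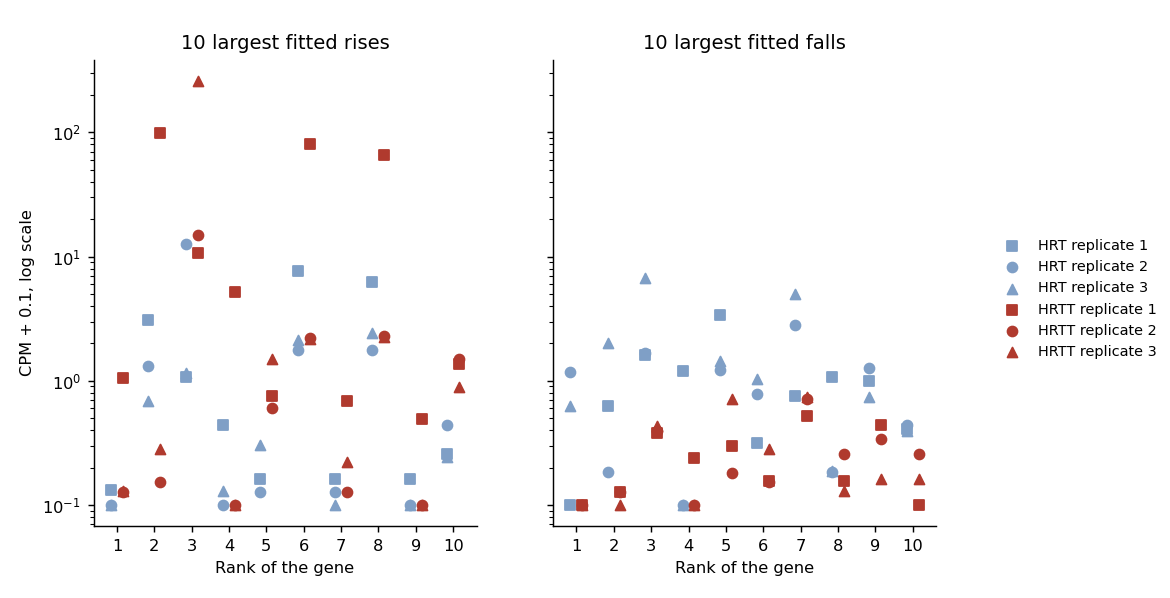
CPM plus 0.1 on a log axis for the 10 tested genes with the largest fitted rise (left) and the 10 with the largest fitted fall (right) in HRTT, 1 symbol per rat, with square, circle and triangle for replicates 1, 2 and 3. In the rises ranked second, sixth and eighth the red square of HRTT replicate 1 stands far above all other rats.

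The sizes of the group level ratios can be set beside the sizes of change in the counts without pairing names. In 2 of the 13478 genes the fitted fold change reached the ratio of Sln, and neither passed an unadjusted p of 0.05 or had groups that did not overlap. The ratio of Tnnt1 was reached by 22 genes, 4 at that p. Downward, the ratio of Gria4 was reached by 2 genes, both at that p, that of Myh6 by 7, with 5 at that p, and that of Dbp by 43, with 21.

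In all, 4 genes were called under 1 alternative fit each, and they are given by identifier since the files do not pair them with symbols. They were chosen after their values were seen. ENSRNOG00000033653 had 488, 457 and 630 counts in HRT and 1124, 1060 and 913 in HRTT. All 3 trained rats were above all 3 untrained rats, at 29.2 ± 2.13 CPM against 15.5 ± 2.75 CPM (SD, n = 3). Its log2 fold change was 0.92 (standard error 0.17, edgeR adjusted p = 0.9997, unadjusted 0.000208), and DESeq2's Wald test gave an adjusted p of 0.0102. In the low responders it had 686, 964 and 897 counts untrained and 1042, 699 and 1580 trained, or 21.1 ± 3.58 and 34.3 ± 6.79 CPM (SD, n = 3), and the log2 difference of the training effects was 0.22 (standard error 0.24).

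ENSRNOG00000001352 had 504, 617 and 343 counts in HRT and 1161, 1357 and 791 in HRTT, again with no overlap. Mean CPM was 14.4 ± 3.88 and 31.0 ± 6.06 (SD, n = 3), a log2 fold change of 1.11 (standard error 0.27). It was called by edgeR with the replicate number as a block and only these 6 libraries in the fit (adjusted p = 0.0352), but not with the block over 12 libraries (edgeR adjusted p = 0.0780) or without a block (edgeR adjusted p = 0.9997). The order of the rats by CPM was the same in both groups, replicate 2 highest and replicate 3 lowest. In LRT it had 800, 716 and 1350 counts and in LRTT 691, 397 and 997, and the log2 difference of the training effects was 1.24 (standard error 0.37, edgeR unadjusted p = 0.00643, adjusted p = 0.947).

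ENSRNOG00000020981 had 49, 56 and 226 counts in HRT and 10, 11 and 11 in HRTT. Mean CPM was 3.23 ± 2.91 in HRT and 0.303 ± 0.0292 in HRTT (SD, n = 3), so the spread lay almost wholly in the untrained rats. The log2 fold change was -3.40 (standard error 0.71), with an adjusted p of 0.000359 in DESeq2 and 0.9997 in edgeR. The log2 fold change lay between -3.75 and -2.34 when any 1 of the 12 rats was left out. Its level in the low responders was 102, 110 and 223 counts untrained and 71, 183 and 132 trained, and the log2 difference of the training effects was -3.70 (standard error 0.92, edgeR adjusted p = 0.947).

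ENSRNOG00000005177 had 735, 946 and 891 counts in HRT and 916, 142 and 166 in HRTT. Trained replicates 2 and 3 were far below every untrained rat, and trained replicate 1 was within their range. The log2 fold change was -1.12 (standard error 0.57, edgeR adjusted p = 0.9997) with all rats and -2.50 without HRTT replicate 1 (edgeR adjusted p = 0.000374). In the low responders it had 794, 938 and 1095 counts untrained and 391, 259 and 496 trained, without overlap in counts, a log2 fold change of -0.96 (edgeR unadjusted p = 0.124).

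**Figure D5:**
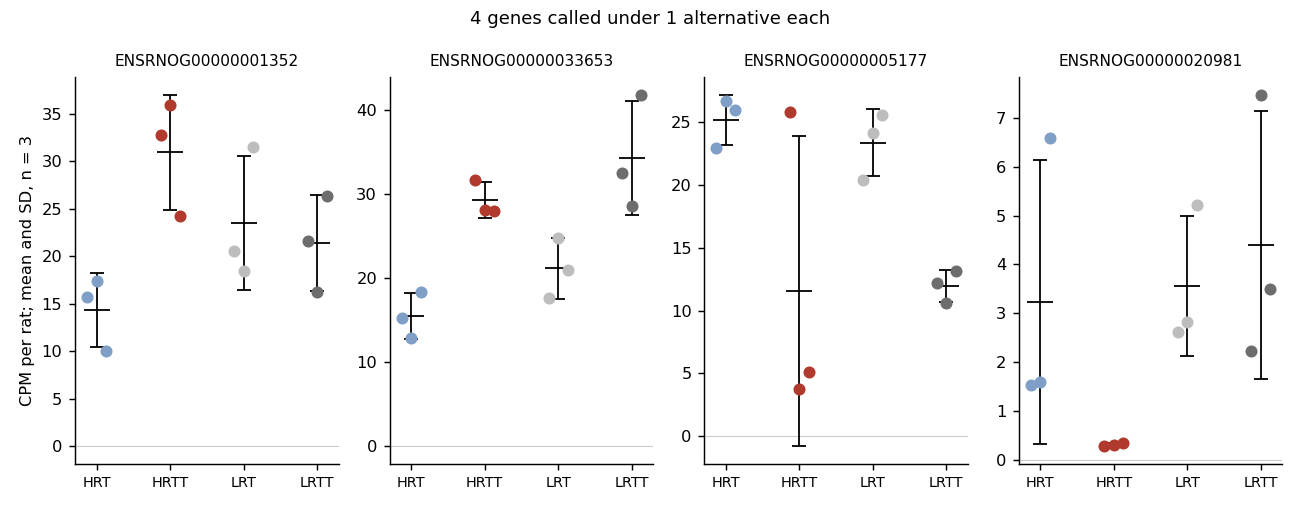
CPM of the 4 identifiers called under 1 alternative fit each, 1 point per rat in HRT, HRTT, LRT and LRTT, with the mean and SD (n = 3) as bars. The HRTT and HRT points do not overlap in 3 of the 4, and in ENSRNOG00000005177 1 HRTT rat lies at the HRT level.

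Whether training changed genes differently in the 2 lines was tested as the difference of the training effects. Of 13478 genes, 0 passed an adjusted p of 0.05 with a fold change above 1.5 in edgeR (smallest adjusted p 0.642), and DESeq2's Wald test called 3. The unadjusted p was under 0.05 in 502 (3.72%), 227 with a more positive and 275 with a more negative change in the high responders. That number was 961 without LRTT replicate 3, 317 without HRTT replicate 2 and 318 without LRT replicate 1, and 350 to 655 with any other rat left out. In the same fit, LRTT against LRT also had 0 called genes, with 565 at an unadjusted p under 0.05.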

How the data were processed

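Gastrocnemius RNA of single rats was sequenced as 50-base single reads. The authors deposited raw counts per Ensembl gene, with no normalization or filter. The file header names featureCounts 1.6.4, Ensembl release 91 of Rnor_6.0, a strand setting of 0 and assignment of a read to every overlapping gene. The methods name TopHat2 (2.1.1 in the submitters' processing notes), while the alignment names have the form of STAR output. The kit is called stranded in the methods, so reads of antisense partners could have been told apart but were not. The expression levels by symbol are a signal per group that the authors deposited for genes they called with Cuffdiff, replicates pooled, unit not named. The log2 fold changes, p-values and q-values of those tables were not used. The level of 1 listed gene is not reported here.

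Gene counts were tested with edgeR 4.0.16 under R 4.3.3 (filterByExpr, count minimum 10, TMM, robust quasi-likelihood test, 4 group terms, 12 libraries), with DESeq2 1.42.0 as an alternative. The tests were tried on simulated data. CPM used TMM-scaled library sizes. Log2 CPM had a prior count of 2. Pairs of replicates had a mean chi-square of 16.0 to 154 over the tested genes, and none was counted as a duplicate. Each library came from 1 rat. Whether rats of a group were littermates is not given in the sources used here.

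Equal replicate numbers were taken from the labels. The deviations of same-numbered HRT and HRTT libraries from their group means correlated across genes with r of 0.475, 0.260 and 0.383, above 0.1 in 3 of 3. Libraries with unlike numbers had r from -0.370 to 0.147, the highest for HRT replicate 3 with HRTT replicate 2. These values are not independent, since deviations from a group mean cancel within the group. The numbers were used as a block in the alternatives only, and the main fit ignores any such pairing. No source names a shared litter, batch or day.

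Members and gene lists were chosen with earlier results of these data known. Genes were named if called, if on the pathway or marker lists, or if among the 5 highest HRTT levels or the 5 largest level ratios in each direction; other names were chosen after their levels were seen. The rule on the smallest p among genes with a symbol could not be applied, as counts carry no symbols. Promoter windows are from RefSeq (GRCr8), whose coordinates differ from those of Rnor_6.0.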

Additional observations from a re-analysis of the deposited data

How the results depend on the processing

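With 3 rats per group, a lone rat can decide a call. The number of called genes in HRTT against HRT was 0, and it was 2 with DESeq2's Wald test (1 higher, 1 lower), 1 with the replicate block and only these 6 libraries in the fit, and 0 to 1 with a rat left out, the 1 being lower and found without HRTT replicate 1. For the difference of the training effects, 0 genes were called, 3 with DESeq2 and 0 to 1 with a rat left out, again without HRTT replicate 1. With RLE scaling, other filters on low counts, the replicate block over 12 libraries, no fold threshold, glmTreat or an adjusted p under 0.10, the number stayed at 0. The cause of these changes was not tested. Without a filter beyond 1 count, 146 genes higher and 140 lower had an unadjusted p under 0.05 with a fold change above 1.5, against 76 and 69. With 10 counts in every library, there were 58 and 45, and with the replicate block and only 6 libraries 140 and 84. Leaving out a rat gave 77 to 123 higher and 52 to 117 lower, with 123 and 106 without HRT replicate 1, 77 and 117 without HRTT replicate 1 and 117 and 71 without HRTT replicate 3. The difference of the distances was -6.15 to -2.33 with a rat left out, -4.35 to -2.90 with other gene numbers or scalings, and turned to 3.77 with the replicate block. The 4 identifiers kept their directions in every alternative run for them. The alternatives for gene lists were not run, since counts carry no symbols. Group levels have no replicates, so no depth or error limits could be given for the named genes.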
